A study of Mus musculus with 20 samples.

Results

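Cytochrome P450 genes of families 1 to 4 were followed in liver and in white fat of the epididymal depot (eWAT) of male mice. Members were taken by symbol, as every gene whose name is Cyp, a digit from 1 to 4, subfamily letters and a closing number. The rule found 60 of the 15608 genes in the liver count table and 57 of the 20738 genes in the eWAT count table, 67 genes in all, of which 50 stood in both tables. Of these, 50 passed the filter on low counts in liver and 25 passed it in eWAT. Annotated pseudogenes were left out (3 in liver, 1 in eWAT), and symbols that close with a letter fell outside the rule (Cyp4a12a, Cyp4a12b and Cyp3a41a in liver; Cyp4a12a, Cyp4a12b and Cyp4a30b in eWAT).

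P450 enzymes are haem proteins of the endoplasmic reticulum that insert an oxygen atom into their substrates with electrons passed on by P450 reductase. Families 1 to 3 are known for oxidising drugs, pollutants, steroids and polyunsaturated fatty acids, and hepatocytes around the central vein make many of their members. Family 4 enzymes are known as fatty acid hydroxylases, and the Cyp4a genes are classic targets of the lipid sensor PPARα. Many of these genes lie in tandem arrays of recent copies, so that neighbours in an array can be nearly the same in sequence.

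The series holds 20 RNA-seq libraries of poly(A) RNA, 5 in each of 4 groups, all from males aged 2 months. WT liver and WT eWAT came from animals with the unaltered insulin receptor. IR 4A liver and IR 4A eWAT came from animals carrying the IR 4A allele, known from the study as a receptor with alanine substitutions in the motif that binds MAD2, a mitotic checkpoint protein that also takes part in uptake of the receptor. The labels name no strain, no Cre and no cell type restriction. The labels do not say that the libraries of a group came from separate animals, so the p-values reflect library-to-library spread alone, which may be technical. Estimated counts summed to between 17989400 and 24238400 per liver library and between 13651900 and 21615400 per eWAT library. Levels below are counts per 1000000 (CPM) after TMM scaling within a tissue, and group values are means ± SD over 5 libraries.

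How far members resemble each other bears on what a count of a single gene holds. Coding sequences were matched by gene ID for 66 of the 67 members, in the GENCODE annotation of the GRCm38 build, and cut into windows of 100 bases, the read length of the libraries. Of these members, 34 held at least 1 window that another Cyp gene repeats exactly, and in 16 more than 10% of windows were repeated. A fragment that falls wholly in such windows cannot be assigned from its sequence, and Salmon then divides it by an estimate. Cyp2c40 and Cyp2c69 stood out, with 50.6% and 40.8% of windows repeated elsewhere, and Cyp2c67 (27.2%) and Cyp2c68 (22.9%) followed. These 4 genes are neighbours on chromosome 19, in the order Cyp2c67, Cyp2c68, Cyp2c40, Cyp2c69, between Cyp2c38 and Cyp2c37. The 60 coding bases around the haem-binding cysteine, shown because they cover the most conserved part of the enzyme, differ at 1 position among the 4, which is in capitals.
Cyp2c40: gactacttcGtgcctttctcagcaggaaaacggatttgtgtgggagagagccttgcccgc
Cyp2c69: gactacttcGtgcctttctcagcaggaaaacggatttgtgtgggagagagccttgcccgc
Cyp2c67: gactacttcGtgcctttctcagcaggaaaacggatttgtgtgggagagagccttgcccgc
Cyp2c68: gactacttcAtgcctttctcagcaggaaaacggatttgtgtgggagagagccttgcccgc
The same stretch of Cyp2a4 and Cyp2a5, whose whole coding sequences are 98.4% identical, has no differing position.
Cyp2a4: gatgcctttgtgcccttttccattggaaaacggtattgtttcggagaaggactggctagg
Cyp2a5: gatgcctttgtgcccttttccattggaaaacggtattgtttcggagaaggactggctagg
By contrast, Cyp1b1, Cyp2d40 and Cyp2e1 shared no window of 100 bases with another Cyp gene. Other close pairs were Cyp2c67 and Cyp2c69 (97.7% identical), Cyp3a25 and Cyp3a59 (97.5%) and Cyp4a10 and Cyp4a32 (97.2%). Values of all these genes carry that uncertainty throughout.

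Promoters of Cyp2c40 and Cyp2c69 are printed because these genes had the lowest fold changes of the 50 members tested in liver. Both lie on the minus strand of chromosome 19 in RefSeq's GRCm38.p6, and each window runs from 250 bases before the annotated start to 50 bases after it. Capitals mark CAAAGTCCA, a core of the site bound by the hepatocyte factor HNF4A, which was picked after the sequences were seen.
Cyp2c40, chr19:39812765-39813064: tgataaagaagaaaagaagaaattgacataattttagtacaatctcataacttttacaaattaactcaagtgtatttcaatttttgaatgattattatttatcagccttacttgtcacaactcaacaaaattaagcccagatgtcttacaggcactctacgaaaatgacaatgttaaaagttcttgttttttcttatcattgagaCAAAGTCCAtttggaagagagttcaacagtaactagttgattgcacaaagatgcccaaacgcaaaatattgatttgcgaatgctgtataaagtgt
Cyp2c69, chr19:39886720-39887019: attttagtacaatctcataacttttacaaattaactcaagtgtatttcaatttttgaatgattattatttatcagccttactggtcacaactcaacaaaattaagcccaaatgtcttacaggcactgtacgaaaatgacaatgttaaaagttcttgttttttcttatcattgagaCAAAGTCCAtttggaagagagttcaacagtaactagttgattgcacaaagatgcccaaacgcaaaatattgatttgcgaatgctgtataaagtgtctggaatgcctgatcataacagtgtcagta
The windows are offset copies, with 267 of 270 aligned bases identical. Searched on both strands, CAAAGTCCA stood in 7 of 61 member promoters (11.5%) against 0.475% of the 32851 promoter windows in the table. The 7 belong to Cyp2c40, Cyp2c65, Cyp2c67, Cyp2c68, Cyp2c69, Cyp2c70 and Cyp3a11. Promoters of Cyp2c40, Cyp2c67, Cyp2c68 and Cyp2c69 are 91.6 to 98.9% identical over aligned bases, so their matches are not independent. Because the letters were also picked from these sequences, the shares are no test of enrichment. The letters TTCNNNGAA, a motif of STAT5, stood in 3 of 61 member promoters (4.92%) against 8.3% of all. GCGTG, the core bound by the AHR receptor, stood in 13 of 61 (21.3%) against 32.4% of all, among them the promoters of Cyp1a1 and Cyp1b1. These matches describe letters and no measured binding.

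Some libraries stood apart. In liver, 16 acute phase genes summed to 75691 CPM in WT 1 and 43836 CPM in WT 3, against 8373 to 16176 CPM in the other 8 libraries. WT 1 was also the lowest of the 10 libraries for 21 of the 50 members tested, a place it took for 19.2% of all genes tested. The liver libraries matched their label, with 11 hepatocyte genes at 92121 to 129978 CPM over the WT and 91423 to 105047 CPM over the IR 4A libraries. In eWAT, 12 adipocyte genes summed to 14469 to 49192 CPM over the WT and 4277 to 25858 CPM over the IR 4A libraries, with the highest sum in WT 4 and the lowest in IR 4A 3 and IR 4A 4. Every eWAT library also held genes of epididymis epithelium, with 20 genes summing to 6309 to 41809.6 CPM over the WT and 37052 to 50297 CPM over the IR 4A libraries, lowest in WT 4. Testis germ cell genes (14) reached 7983 CPM in WT 2 and 2447, 2606 and 3600.3 CPM in WT 1, IR 4A 3 and IR 4A 4, and at most 895 CPM in the other 6. In whole tissue, fewer cells of a type and less RNA per cell cannot be told apart.

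In liver the summed P450 level differed between genotypes by less than the spread of the libraries. The 60 members took 1.89 ± 0.445% of all counts in WT and 2.23 ± 0.198% in IR 4A, and their summed level was 19941 ± 4395 CPM (WT) against 21136 ± 2143 CPM (IR 4A). No member passed an edgeR adjusted p of 0.05 in either direction, where 0% of the 12421 genes tested passed as higher and 0.00805% as lower. At an unadjusted p under 0.05 by edgeR, 2 of 50 were higher (8.6% of all genes) and 8 of 50 lower (9.48% of all genes). DESeq2, run on the same counts, gave only 45 of the 50 members an adjusted p. It called 0 members higher and 2 lower, Cyp2c40 and Cyp2d40, where it called 1.85% of genes higher and 2.26% lower. The voom fit called none of the members. The authors' deposited table has 3 members lower at an adjusted p under 0.05 (Cyp2c40, Cyp2c69 and Cyp2d40) and 0 higher, against 1.37% and 1.2% of its genes. The median log2 fold change of the 50 tested members was -0.027, that of all genes 0.0048, and 24 members were positive and 26 negative. Without WT 1 and WT 3, the libraries high in acute phase genes, edgeR called no member of 52 tested and 0 of all 12716 genes. The median over members was then -0.12.

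Cyp2c40, a fatty acid oxidising enzyme of the Cyp2c array, had the largest difference of the 50 members tested in liver. It stood at 18.8, 12.0, 9.45, 4.13 and 8.22 CPM in WT libraries 1 to 5 and 1.83, 2.16, 2.56, 1.74 and 1.69 CPM in IR 4A libraries 1 to 5. Every IR 4A library was below every WT library, as in 1.83% of all genes tested, and only Cyp2c40 among the members did so. The means were 10.5 ± 5.45 CPM (WT) against 2.00 ± 0.364 CPM (IR 4A) (SD, n = 5). The log2 fold change was -2.39 with an SE of 0.33 (edgeR adjusted p = 0.0622), and DESeq2 gave an adjusted p of 1.59e-09. Leaving out WT 1, WT 4 or IR 4A 1, each alone, brought the edgeR adjusted p of Cyp2c40 below 0.05, the lowest being 0.00638. Leaving out any other single library kept it above 0.05, the highest being 0.187. Without both WT 1 and WT 3 its log2 fold change was -2.02. The counts behind these levels ran from 32 to 336 per library.

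Cyp2c69, the next gene in the array, showed the same pattern at a lower level. It stood at 3.70, 2.93, 2.15, 0.555 and 1.64 CPM in WT libraries 1 to 5 and 0.758, 0.251, 0.489, 0.707 and 0.264 CPM in IR 4A libraries 1 to 5. WT 4 overlapped with the IR 4A libraries, and the order of the 5 WT libraries was the same as for Cyp2c40 (1, 2, 3, 5, 4). The log2 fold change was -2.13 with an SE of 0.47 (edgeR adjusted p = 0.112). The authors' deposited table gives Cyp2c69 a log2 fold change -2.18, DESeq2 adjusted p = 0.00279. Cyp2c40 and Cyp2c69 added together gave 12.7 ± 6.62 CPM (WT) against 2.49 ± 0.393 CPM (IR 4A), with no overlap. Both also share windows with the far more abundant Cyp2c67 and Cyp2c68, and how Salmon divided reads among the 4 was not tested. Cyp2c67 had 246 ± 70.0 CPM (WT) against 198 ± 29.3 CPM (IR 4A), and its log2 fold change was -0.32 with an SE of 0.18 (edgeR adjusted p = 0.364). Cyp2c68 had 129 ± 23.8 CPM (WT) against 92.7 ± 16.0 CPM (IR 4A), with a log2 fold change of -0.48 with an SE of 0.15 (edgeR adjusted p = 0.161). Added together, the 4 neighbours ranged from 302 to 531 CPM in WT and from 224 to 326 CPM in IR 4A, so the groups overlapped.

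**Figure D1:**
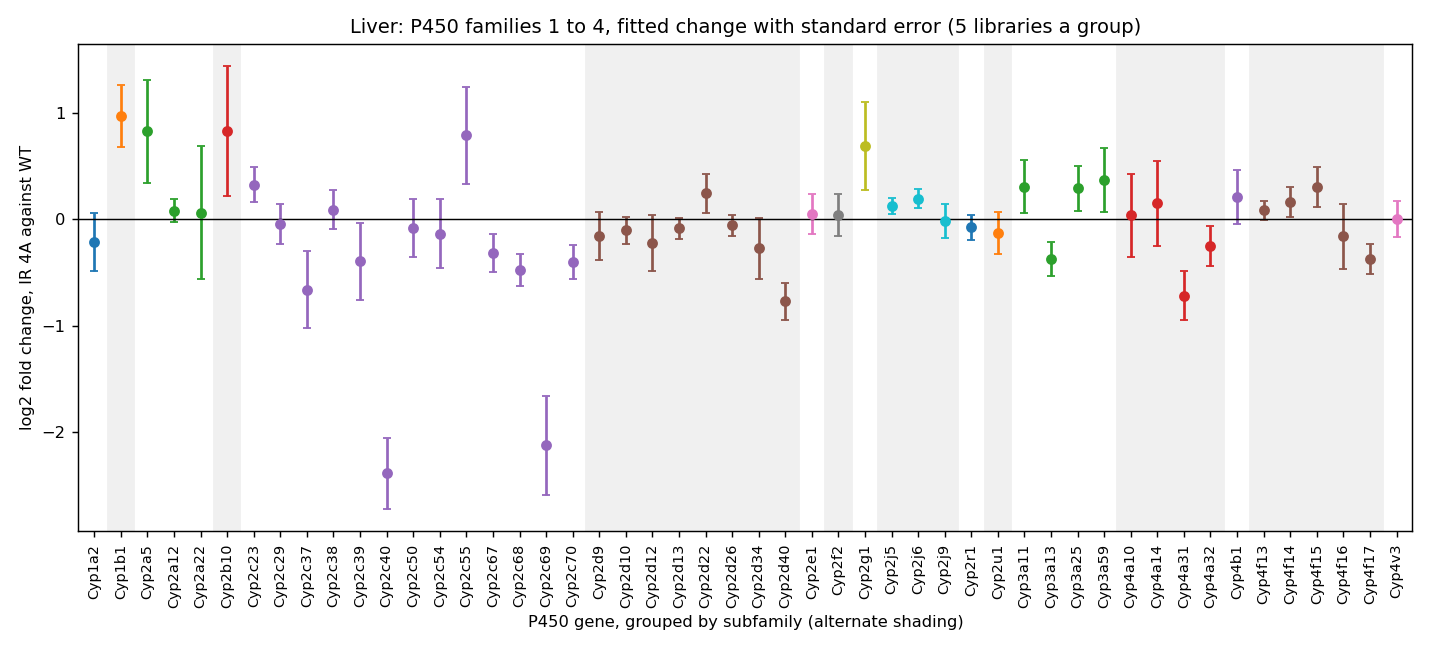
Fitted log2 fold change of IR 4A against WT in liver for the 50 tested P450 genes, grouped by subfamily along the horizontal axis; points are edgeR estimates and bars 1 standard error on each side. Cyp2c40 (-2.39) and Cyp2c69 (-2.13) lie far below the other 48, which run from -0.77 (Cyp2d40) to 0.97 (Cyp1b1).

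The rest of the Cyp2c subfamily, known for oxidising arachidonic acid and many drugs, did not follow in full. Of 13 tested Cyp2c members, 10 had a negative and 3 a positive log2 fold change. Cyp2c70, which hydroxylates bile acids to muricholic acids in mice, had 366 ± 70.5 CPM (WT) against 278 ± 54.1 CPM (IR 4A), a log2 fold change of -0.40 with an SE of 0.16 (edgeR adjusted p = 0.232). Cyp2c29, the most abundant of the subfamily in WT liver at 531 CPM per kb of coding sequence, had 781 ± 229 CPM (WT) against 759 ± 79.3 CPM (IR 4A), a log2 fold change of -0.041 with an SE of 0.19 (edgeR adjusted p = 0.934). Cyp2c37, Cyp2c50 and Cyp2c54, a close trio, had log2 fold changes of -0.66, -0.080 and -0.13. The positive ones were Cyp2c23 (0.33), Cyp2c38 (0.091) and Cyp2c55 (0.79). The summed level of the subfamily was 2691 ± 561 CPM (WT) against 2470.1 ± 313 CPM (IR 4A), a difference smaller than the spread within either group.

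In the Cyp2d subfamily, relatives of the human debrisoquine hydroxylase, 7 of 8 tested members were negative and 1 positive. Cyp2d40 carried the largest of these differences. It stood at 38.6, 30.2, 42.3, 33.3 and 44.7 CPM in WT libraries 1 to 5 and 24.9, 30.6, 19.5, 14.9 and 21.2 CPM in IR 4A libraries 1 to 5. Of the IR 4A libraries, 4 were below every WT library and IR 4A 2 was level with WT 2. The log2 fold change of Cyp2d40 was -0.77 with an SE of 0.17 (edgeR adjusted p = 0.113), and DESeq2 gave an adjusted p of 0.00478. The authors' deposited table gives Cyp2d40 a log2 fold change -0.81, DESeq2 adjusted p = 0.00591. Its coding sequence in the annotation used, of 1014 bases, held no window shared with another Cyp gene. Cyp2d9, the male-predominant testosterone hydroxylase and the most abundant Cyp2d gene, had 1077 ± 282 CPM (WT) against 964 ± 277 CPM (IR 4A), a log2 fold change of -0.16 with an SE of 0.22 (edgeR adjusted p = 0.743). The other 6 ran from -0.27 (Cyp2d34) to 0.25 (Cyp2d22), and the subfamily summed to 2533 ± 476 CPM (WT) against 2365 ± 380.1 CPM (IR 4A).

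Cyp2a genes, which hydroxylate coumarin and steroids, had higher means in IR 4A liver, with all 3 tested members positive. Cyp2a5 stood at 145, 1423, 264, 501 and 653 CPM in WT libraries 1 to 5 and 649, 801, 1111, 1521 and 1219 CPM in IR 4A libraries 1 to 5. The WT values were spread widely, with the lowest in WT 1 and WT 3 and, in WT 2, the second highest of all 10. Its log2 fold change was 0.83 with an SE of 0.49 (edgeR adjusted p = 0.391). WT 1 and WT 3, the lowest for Cyp2a5, were the libraries with the highest acute phase sums. Their part in the Cyp2a5 difference was not tested. Cyp2a4, the near-identical partner of Cyp2a5, was at 1202 counts in IR 4A 3 and at 17 counts or fewer in each other liver library, so it did not pass the filter. How Salmon divided the reads of these 2 genes in that library was not tested, and their sum followed Cyp2a5, at 597 ± 503 CPM (WT) against 1069.5 ± 348 CPM (IR 4A). Cyp2a12 was steady by comparison, with 483 ± 71.6 CPM (WT) against 512 ± 11.6 CPM (IR 4A).

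**Figure D2:**
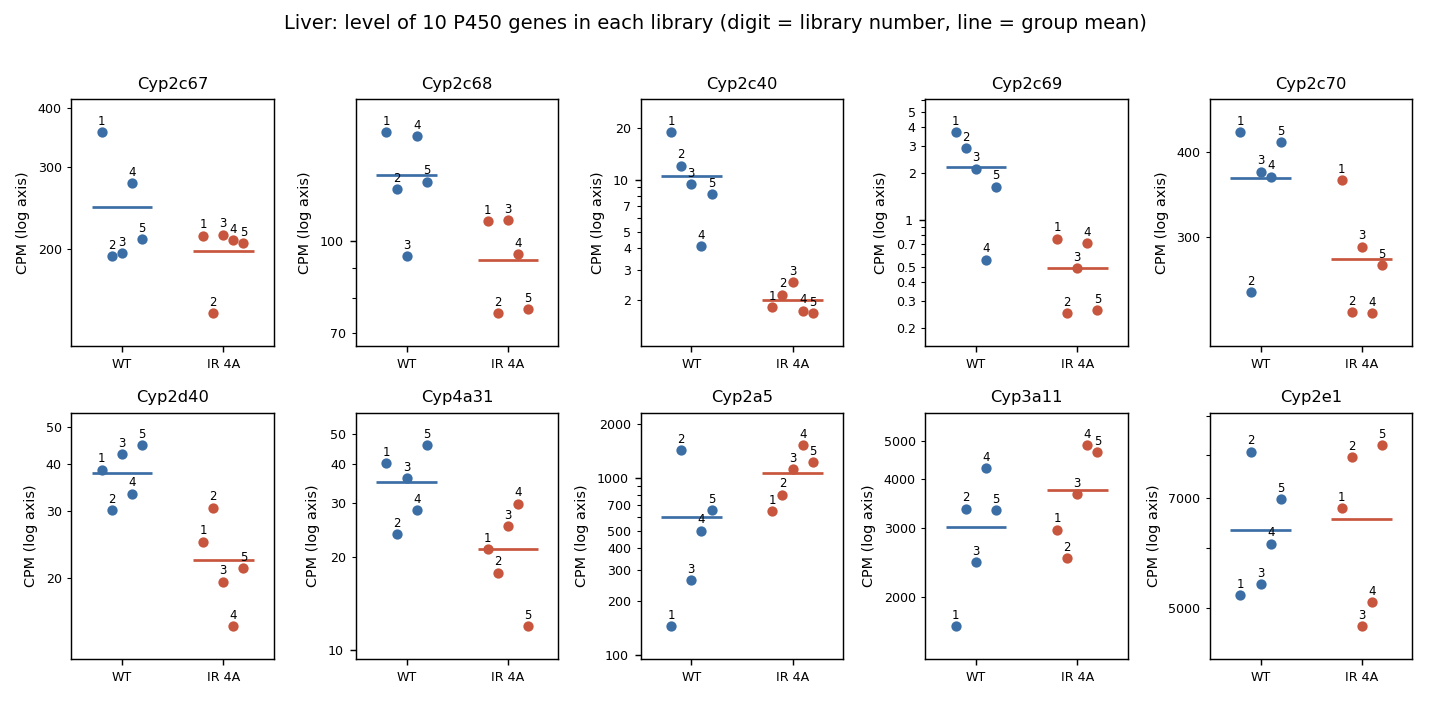
Level of 10 P450 genes in each liver library, in CPM on a log axis with its own range for each gene; dots are libraries, digits their numbers and lines group means (blue WT, red IR 4A). Cyp2c40 is the only panel without overlap (WT 4.13 to 18.8, IR 4A 1.69 to 2.56 CPM), and WT 1 and WT 3 are the lowest WT libraries for Cyp2a5, Cyp3a11 and Cyp2e1.

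The most abundant P450 genes of liver differed between genotypes by less than the spread of their libraries. Cyp2e1, the ethanol-inducible enzyme of the central vein and 31.8% of the summed WT level of members, stood at 5192, 8075, 5368, 6088 and 6979.7 CPM in WT libraries 1 to 5 and 6796, 7947, 4721, 5086 and 8237 CPM in IR 4A libraries 1 to 5. The groups covered the same range, and its log2 fold change was 0.048 with an SE of 0.19 (edgeR adjusted p = 0.921). Cyp2f2, an enzyme of periportal hepatocytes and of lung club cells, had 1084 ± 343 CPM (WT) against 1114 ± 129 CPM (IR 4A), a log2 fold change of 0.040 with an SE of 0.19 (edgeR adjusted p = 0.938). Cyp1a2, the main AHR target of hepatocytes, had 457 ± 196 CPM (WT) against 395 ± 84.8 CPM (IR 4A), a log2 fold change of -0.21 with an SE of 0.27 (edgeR adjusted p = 0.717). Cyp2b10, the standard target of the receptor CAR, was scarce, with 2.67 ± 2.12 CPM (WT) against 4.79 ± 2.73 CPM (IR 4A) and a log2 fold change of 0.83 with an SE of 0.61 (edgeR adjusted p = 0.491). Without WT 1 and WT 3 the log2 fold changes of Cyp2e1 and Cyp2f2 were -0.11 and -0.23, of the opposite sign. Per kb of coding sequence, the WT order began with Cyp2e1 (4287 CPM), Cyp3a11 (1993 CPM), Cyp2f2 (736 CPM) and Cyp2d9 (712 CPM). Cyp2f2 and Cyp2d9 did not differ beyond the spread of their libraries.

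Family 3, with the main drug-oxidising enzymes, had 3 positive and 1 negative member. Cyp3a11, the standard target of the receptor PXR, stood at 1683, 3356, 2451, 4249 and 3328 CPM in WT libraries 1 to 5 and 2968, 2509.7, 3652, 4869 and 4675 CPM in IR 4A libraries 1 to 5. The ranges overlapped, with WT 1 lowest and IR 4A 4 and 5 highest, and the log2 fold change was 0.31 with an SE of 0.25 (edgeR adjusted p = 0.536). Without WT 1 and WT 3 the log2 fold change of Cyp3a11 was 0.034. Cyp3a25 and Cyp3a59, near-identical genes, had log2 fold changes of 0.29 and 0.37. Cyp3a13 differed in sign, with 214 ± 39.7 CPM (WT) against 165 ± 37.7 CPM (IR 4A), a log2 fold change of -0.37 with an SE of 0.16 (edgeR adjusted p = 0.253).

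In family 4, the fatty acid hydroxylases Cyp4a10 and Cyp4a14 varied more between WT libraries than between genotypes. Cyp4a10 ranged from 187 to 1025 CPM in WT, with WT 5 highest, and from 339 to 569 CPM in IR 4A. Its log2 fold change was 0.038 with an SE of 0.39 (edgeR adjusted p = 0.973), and that of Cyp4a14 was 0.15 with an SE of 0.40 (edgeR adjusted p = 0.874). Without WT 1 and WT 3 these were -0.41 and -0.022. Cyp4a31 differed more, at 40.3, 23.7, 36.0, 28.4 and 46.0 CPM in WT libraries 1 to 5 and 21.2, 17.8, 25.2, 29.8 and 11.9 CPM in IR 4A libraries 1 to 5. Only WT 2 and WT 4 fell within the IR 4A range, and the log2 fold change was -0.72 with an SE of 0.23 (edgeR adjusted p = 0.170). Cyp4a31 is 96.6% identical to Cyp4a10 in coding sequence, and Cyp4a10, Cyp4a31 and Cyp4a32 together gave 524 ± 363 CPM (WT) against 514 ± 99.5 CPM (IR 4A). Of the Cyp4f genes, which inactivate leukotrienes and other eicosanoids, 3 were positive and 2 negative. Cyp4f17 was the lowest of these, with 13.2 ± 2.33 CPM (WT) against 10.2 ± 1.62 CPM (IR 4A), a log2 fold change of -0.37 with an SE of 0.14 (edgeR adjusted p = 0.220). Cyp4v3, a hydroxylase of medium-chain fatty acids, had 419.8 ± 118 CPM (WT) against 421 ± 18.2 CPM (IR 4A), a log2 fold change of 0.0055 with an SE of 0.17 (edgeR adjusted p = 0.991).

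Among members with a positive difference, Cyp1b1 and Cyp2j6 had an unadjusted p under 0.05. Cyp1b1, an estrogen and retinoid oxidising enzyme of mesenchymal cells, was scarce in liver. It stood at 0.673, 0.552, 0.450, 0.247 and 0.349 CPM in WT libraries 1 to 5 and 0.714, 1.00, 0.941, 0.848 and 1.00 CPM in IR 4A libraries 1 to 5, from 4 to 12 counts in WT and 16 to 25 counts in IR 4A. Every IR 4A library was above every WT library, as in 1.68% of all genes tested. The log2 fold change was 0.97 with an SE of 0.29 (edgeR adjusted p = 0.151). Cyp2j6, an epoxygenase, had 72.6 ± 8.57 CPM (WT) against 83.2 ± 5.72 CPM (IR 4A), a log2 fold change of 0.20 with an SE of 0.089 (edgeR adjusted p = 0.269).

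In eWAT a single P450 gene made up most of the family's RNA. Cyp2e1 took 85.5% of the summed WT level of the 57 members, which together were 0.250 ± 0.0854% of all counts in WT and 0.169 ± 0.0984% in IR 4A. In WT, 29 members reached a mean of 1 CPM and 10 reached 10 CPM. Per kb of coding sequence, Cyp2e1 (1482 CPM) was followed by Cyp1b1 (45.0 CPM), Cyp4v3 (25.9 CPM), Cyp2f2 (22.9 CPM) and Cyp2d22 (20.3 CPM). From Cyp4v3 downward these neighbours did not differ beyond the spread of their libraries.

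No member passed an edgeR adjusted p of 0.05 in eWAT, where 0% of the 16476 genes tested passed as higher and 0.0121% as lower. At an unadjusted p under 0.05 by edgeR, 1 of 25 was higher (6.63% of all genes) and 4 of 25 lower (9.24% of all genes). DESeq2 called Cyp1b1 and Cyp4f18 lower and 0 higher, where it called 4.14% of genes lower and 3.18% higher, and voom called none. The authors' deposited table has no member past an adjusted p of 0.05, against 1.01% of its genes higher and 1.9% lower. No tested member had groups that do not overlap, which 2.52% of all genes had as higher and 3.22% as lower. The median log2 fold change was -0.31 over the 25 tested members and -0.083 over all genes, and 10 members were positive and 15 negative. Without WT 1, WT 2, IR 4A 3 and IR 4A 4, the libraries high in germ cell genes, edgeR called no member of 23 tested. It called 0 of all 15948 genes in that fit.

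Cyp2e1 in eWAT stood at 1563, 1339, 2197, 3599.6 and 2262 CPM in WT libraries 1 to 5 and 2468, 1773, 268, 516 and 2052 CPM in IR 4A libraries 1 to 5. IR 4A 3 and IR 4A 4 were far below all others and WT 4 was highest, and the summed adipocyte genes had the same lowest and highest libraries. The log2 fold change was -0.63 with an SE of 0.57 (edgeR adjusted p = 0.613), and with the adipocyte sum as a covariate it was 0.058. Cyp4b1, a fatty acid hydroxylase of many tissues, and Cyp4v3 were lowest in the same libraries. Cyp4b1 had 29.6 ± 17.5 CPM (WT) against 19.9 ± 12.3 CPM (IR 4A), a log2 fold change of -0.57 with an SE of 0.54 (edgeR adjusted p = 0.632), which was 0.26 with the adipocyte covariate. Cyp4v3 had 40.9 ± 13.3 CPM (WT) against 26.1 ± 13.2 CPM (IR 4A), a log2 fold change of -0.65 with an SE of 0.38 (edgeR adjusted p = 0.430). It stayed negative in all 21 alternative fits (-0.85 to -0.11), the adipocyte covariate among them. The part of adipocytes in the values of Cyp2e1, Cyp4b1 and Cyp4v3 was not tested. Cyp2f2 varied most among the abundant members, from 2.90 CPM in IR 4A 3 to 80.8 CPM in WT 5. Its log2 fold change was -0.31 with an SE of 0.86 (edgeR adjusted p = 0.858), and leaving out WT 5 turned the sign, to 0.32.

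**Figure D3:**
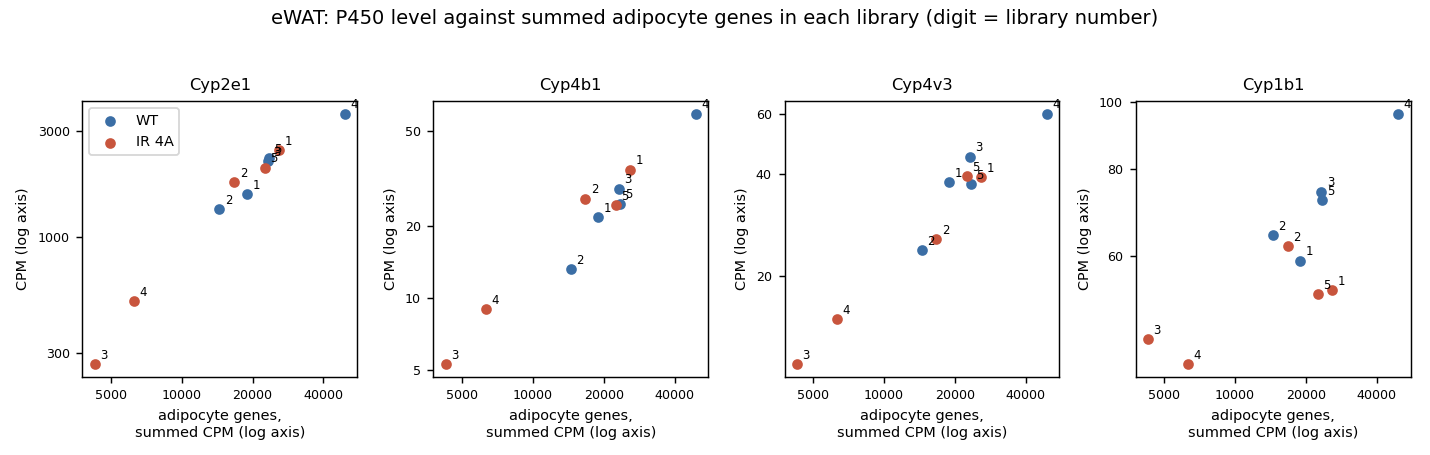
Level of 4 P450 genes (vertical axis, CPM) against the summed level of 12 adipocyte genes (horizontal axis, CPM) in the 10 eWAT libraries, both on log axes; blue dots are WT, red dots IR 4A, digits library numbers. Cyp2e1 runs from 268 CPM in IR 4A 3, where the adipocyte sum is 4277 CPM, to 3599.6 CPM in WT 4, where it is 49192 CPM.

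Besides Cyp1b1, the members with a negative difference at an unadjusted p under 0.05 in eWAT were Cyp4f18, Cyp2s1 and Cyp2j9. Cyp4f18, the leukotriene-inactivating enzyme of myeloid cells, had 2.04 ± 0.919 CPM (WT) against 0.878 ± 0.399 CPM (IR 4A), a log2 fold change of -1.21 with an SE of 0.41 (edgeR adjusted p = 0.238), and 10 macrophage genes summed to 453 to 1364 CPM over the WT and 158 to 360.1 CPM over the IR 4A libraries. Cyp2s1, an enzyme of epithelia, had 7.56 ± 3.27 CPM (WT) against 4.12 ± 1.27 CPM (IR 4A), a log2 fold change of -0.87 with an SE of 0.32 (edgeR adjusted p = 0.251). Cyp2j9 had 7.96 ± 3.11 CPM (WT) against 4.80 ± 1.73 CPM (IR 4A), a log2 fold change of -0.73 with an SE of 0.33 (edgeR adjusted p = 0.314). The highest value of Cyp4f18, Cyp2s1 and Cyp2j9 was in WT 4. Cyp4f13 was the member with a positive difference at an unadjusted p under 0.05, with 21.8 ± 3.45 CPM (WT) against 26.5 ± 1.90 CPM (IR 4A), a log2 fold change of 0.28 with an SE of 0.12 (edgeR adjusted p = 0.305). Cyp2b23, Cyp4x1 and Cyp1a1 were scarce, with log2 fold changes of 0.71, 0.33 and 0.044, and Cyp4f39 and Cyp4f17 had -1.05 and -0.31. The part of the macrophage level in the value of Cyp4f18 was not tested.

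P450 genes typical of hepatocytes were read in eWAT at low levels and unevenly. Of the 57 members listed, 30 had their highest value in WT 4, as did 10 of the 25 tested, a place WT 4 took for 26.3% of all genes tested. Cyp3a11 stood at 0, 3.75, 0.528, 9.96 and 0 CPM in WT libraries 1 to 5 and 0, 0, 0, 5.10 and 0 CPM in IR 4A libraries 1 to 5. Cyp2d9 was at 6.95 CPM in WT 4 and at 0.121 to 1.32 CPM in the other WT libraries. Cyp2c29, Cyp1a2 and Cyp4a10 were at 4.63, 2.97 and 3.22 CPM in WT 4. Hepatocyte genes were high in the same libraries. Of the 11 on the list, Trf, which codes for transferrin, made up 50.7 to 99.7% of the eWAT sum. In WT 4 and IR 4A 4 the other 10 summed to 515 and 315 CPM. They summed to 74.4 and 67.6 CPM in WT 2 and WT 3, and to at most 7.52 CPM in the other 6. Alb, the albumin gene, had 4829 and 2899 counts in WT 4 and IR 4A 4. The 4 libraries with Cyp3a11 above 0 were those same 4. Another pair behaved differently: Cyp2c55 and Cyp2c65 were at 5.48 and 5.00 CPM in WT 1 and at most 0.263 CPM in each other eWAT library. None of the 7 genes named here passed the filter in eWAT, so they were not tested there. The part of hepatocyte RNA in these values was not tested. Without WT 4 and IR 4A 4, edgeR called no member of 25 tested in eWAT and 0 of all 16481 genes. Cyp4f39, a fatty acid hydroxylase of skin, passed the filter and followed another pattern, at 3.10, 6.98, 0.898, 0.654 and 0.424 CPM in WT libraries 1 to 5 and 0.430, 0.273, 2.41, 2.40 and 0.261 CPM in IR 4A libraries 1 to 5. Its highest values were in WT 1, WT 2, IR 4A 3 and IR 4A 4, the same libraries that were high in testis germ cell genes, and the part of those cells was not tested.

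The tissues were then compared for the IR 4A difference itself, in a joint fit that treated all 20 libraries as independent. Cyp1b1 was the member for which this difference passed, 1 of 47 tested, against 1.67% of all genes with a more negative change in eWAT and 0.735% with a more positive one, of which the members had 0. In eWAT Cyp1b1 stood at 59.1, 64.3, 74.3, 96.3 and 72.2 CPM in WT libraries 1 to 5 and 53.6, 62.0, 45.6, 41.9 and 52.8 CPM in IR 4A libraries 1 to 5. Only IR 4A 2 reached into the WT range, and the log2 fold change within eWAT was -0.52 with an SE of 0.15 (edgeR adjusted p = 0.216). The eWAT change minus the liver change of Cyp1b1 was -1.51 with an SE of 0.27 (edgeR adjusted p = 0.0141) on the log2 scale, with a negative change in eWAT and a positive one in liver. Without eWAT WT 4 and IR 4A 4 it was -1.25 (edgeR adjusted p = 0.0373). DESeq2 gave Cyp1b1 in eWAT an adjusted p of 0.0242. Genes of fibroblasts and adipose progenitors (11) differed beside it. Their summed level in liver was 196 to 233 CPM over the WT and 232 to 315 CPM over the IR 4A libraries. In eWAT it was 3248 to 7712 CPM over the WT and 949 to 2608 CPM over the IR 4A libraries, with no overlap. The part of these cells in the Cyp1b1 values was not tested.

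**Figure D4:**
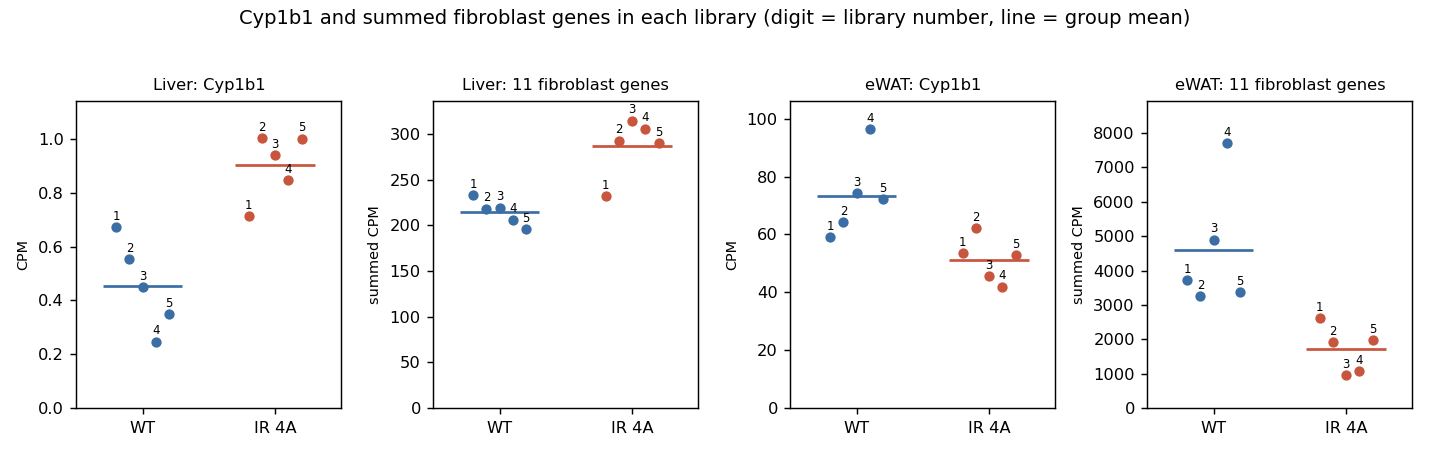
Cyp1b1 level and the summed level of 11 fibroblast and progenitor genes in each library of liver (left pair) and eWAT (right pair), in CPM on axes that start at 0; dots are libraries, digits their numbers, lines group means. Cyp1b1 means were 0.454 in WT and 0.902 CPM in IR 4A liver, and 73.2 and 51.2 CPM in eWAT.

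Over the 47 members of the joint fit, the median difference between tissues in the IR 4A change was -1.25, against -0.12 over all genes, with 9 positive and 38 negative. Of the members, 14 had an unadjusted p under 0.05, all negative, against 14.6% of all genes negative and 7.51% positive. Several of these are liver-type genes near 0 in eWAT, which entered the joint fit through their liver level. No Cyp2c member, for example, passed the filter within eWAT. The median and the counts of negative members include such genes, whose eWAT change rests on few counts. Cyp2c29 had -5.06 with an SE of 1.41 (edgeR adjusted p = 0.0589), Cyp4f14 -3.19 with an SE of 0.92 (edgeR adjusted p = 0.0652), Cyp2c55 -5.08 with an SE of 1.69 (edgeR adjusted p = 0.0953) and Cyp2c50 -6.23 with an SE of 2.26 (edgeR adjusted p = 0.129). Single eWAT libraries weighed heavily in these values: without WT 4, Cyp2c29 had -3.23 and Cyp2c50 -2.79, and without WT 1, Cyp2c55 had -1.41. DESeq2 called 5 of the 41 members with an adjusted p here, all lower: Cyp1b1, Cyp2c29, Cyp2c50, Cyp2c55 and Cyp4f14. It called 4.28% of all genes higher and 4.76% lower.

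WT eWAT and WT liver differed in nearly every member tested. In the joint fit 46 of 47 members passed an edgeR adjusted p of 0.05, 38 lower in eWAT (33.9% of all genes) and 8 higher (43.2% of all genes), and Cyp2d34 did not pass. The median log2 difference, eWAT against liver, was -8.19 for the members and 0.19 for all genes. A gene could pass the filter of the joint fit through its liver level alone, and only 25 members passed the filter within eWAT. The count of members lower in eWAT and their median were therefore partly set by the filter. In all, 10 members were listed in the liver table only, among them Cyp2c40, Cyp2c69 and Cyp2d40, and 7 in the eWAT table only. Levels here are in CPM per kb of coding sequence under the joint scaling, which differs from the within-tissue scaling above. Cyp3a11 had 3275 in WT liver and 1.22 in WT eWAT, a log2 difference of -11.38 with an SE of 1.68 (edgeR adjusted p = 5.19e-06). Cyp2e1 was lower but still abundant in eWAT, with 7061 in WT liver and 970.4 in WT eWAT, a log2 difference of -2.86 with an SE of 0.48 (edgeR adjusted p = 2.56e-05). The members higher in eWAT were Cyp1a1, Cyp1b1, Cyp2s1, Cyp4b1, Cyp4f16, Cyp4f18, Cyp4f39 and Cyp4x1. Of these, Cyp1a1, Cyp4b1, Cyp4f16 and Cyp4f39 overlapped between WT eWAT and WT liver libraries. The part of epididymis and testis germ cells in the eWAT values was not tested. Cyp1b1 had 0.460 in WT liver and 29.5 in WT eWAT, a log2 difference of 5.99 with an SE of 0.20 (edgeR adjusted p = 7.04e-15). Cyp2s1 had 0.319 in WT liver and 3.29 in WT eWAT, a log2 difference of 3.35 with an SE of 0.48 (edgeR adjusted p = 3.72e-06). Cyp4b1 had 3.63 in WT liver and 12.6 in WT eWAT, a log2 difference of 1.80 with an SE of 0.44 (edgeR adjusted p = 0.00118). Among members lower in eWAT, the smallest differences included those of Cyp4f17, Cyp4f13 and Cyp2j6: Cyp4f17 by -0.79 with an SE of 0.18 (edgeR adjusted p = 4.73e-04), Cyp4f13 by -2.37 with an SE of 0.10 (edgeR adjusted p = 2.23e-13) and Cyp2j6 by -2.64 with an SE of 0.12 (edgeR adjusted p = 2.15e-13). Cyp4a31 and Cyp4a32 were at or near 0 in WT eWAT, at 0.131 and 0.0422 CPM per kb.

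**Figure D5:**
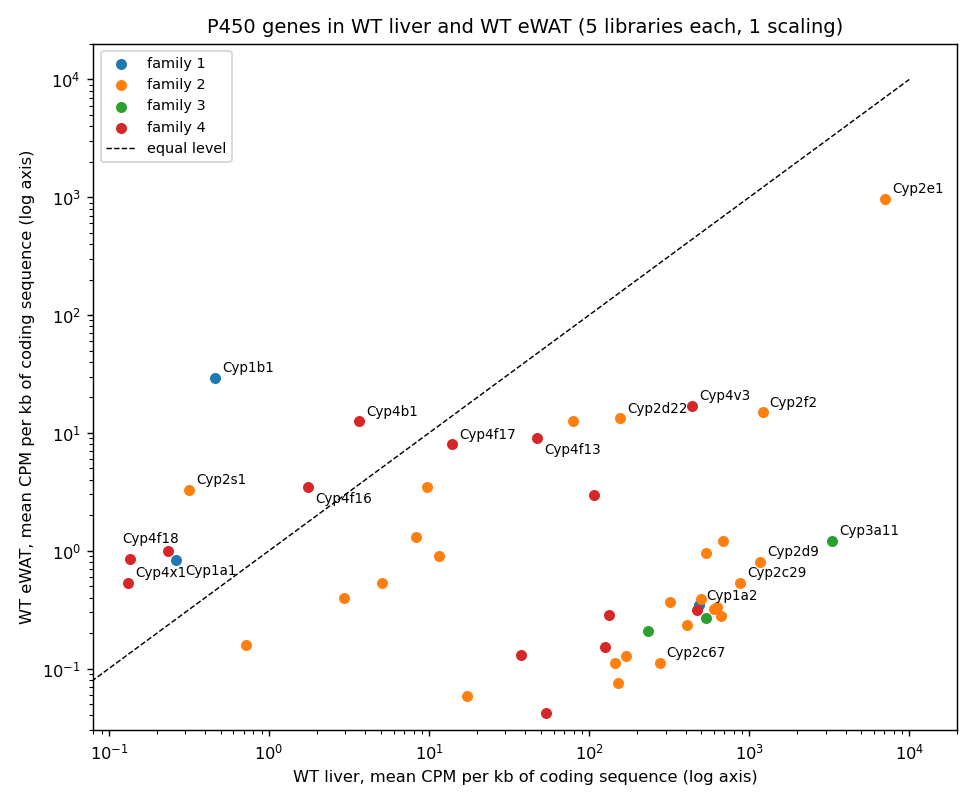
Mean level of 46 P450 genes with a known coding length in WT liver (horizontal axis) and WT eWAT (vertical axis), in CPM per kb of coding sequence on log axes; dots are genes, coloured by family, and the dashed line marks equal levels. Most genes lie far below the line, Cyp2e1 is the highest in both tissues, and Cyp1b1 lies farthest above the line (0.460 in WT liver and 29.5 in WT eWAT).

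Partner genes of the P450 system were read from lists. The 8 tested genes of electron transfer in liver had 0 calls by edgeR in either direction, a median log2 fold change of 0.077 and 1 unadjusted p under 0.05, for Cyb5r3. Por, the P450 reductase that serves all these enzymes, had 558 ± 178 CPM (WT) against 694 ± 45.9 CPM (IR 4A), a log2 fold change of 0.32 with an SE of 0.18 (edgeR adjusted p = 0.382). The 13 genes of haem synthesis and breakdown had 0 calls, 2 unadjusted p under 0.05 on the lower side and a median of -0.020 in liver, and Alas1, the rate-limiting enzyme, had 549 ± 150.1 CPM (WT) against 596 ± 67.4 CPM (IR 4A), a log2 fold change of 0.12 with an SE of 0.17 (edgeR adjusted p = 0.746). Of 18 tested receptors and transcription factors, 0 were called by edgeR, 9 were positive and 9 negative, with 2 unadjusted p under 0.05 on the higher and 4 on the lower side. Ahr, the receptor upstream of Cyp1 genes, had 52.2 ± 15.0 CPM (WT) against 33.8 ± 9.70 CPM (IR 4A), a log2 fold change of -0.63 with an SE of 0.23 (edgeR adjusted p = 0.199). Its partner Arnt had 33.9 ± 1.76 CPM (WT) against 41.5 ± 1.43 CPM (IR 4A), a log2 fold change of 0.29 with an SE of 0.062 (edgeR adjusted p = 0.108), with all IR 4A libraries above all WT libraries. Hnf4a had 587 ± 77.2 CPM (WT) against 494 ± 41.5 CPM (IR 4A), a log2 fold change of -0.25 with an SE of 0.11 (edgeR adjusted p = 0.253), and Ppara had 105 ± 28.8 CPM (WT) against 126 ± 11.4 CPM (IR 4A), a log2 fold change of 0.26 with an SE of 0.16 (edgeR adjusted p = 0.398). Other P450 families (14 tested genes, 0 called by edgeR, 2 unadjusted p under 0.05 on the lower side) had a median of -0.015. Of these, Cyp7b1, the oxysterol hydroxylase of bile acid synthesis, had 374 ± 107 CPM (WT) against 223 ± 88.4 CPM (IR 4A), a log2 fold change of -0.75 with an SE of 0.27 (edgeR adjusted p = 0.204). Of 27 tested flavin monooxygenases and conjugation enzymes, 0 were called, 25 were positive and 2 negative, with a median of 0.26 and 8 unadjusted p under 0.05 on the higher side and 1 on the lower. The 28 listed genes summed to 5412 and 6387 CPM in WT 1 and WT 3, the libraries high in acute phase genes, to 8342 to 9190.2 CPM in the other 3 WT and to 7975 to 9411 CPM in the IR 4A libraries. The part of WT 1 and WT 3 in the list's median was not tested. Fmo2, a flavin monooxygenase, had 9.99 ± 2.39 CPM (WT) against 23.7 ± 6.40 CPM (IR 4A), a log2 fold change of 1.25 with an SE of 0.21 (edgeR adjusted p = 0.0727). Of these liver genes DESeq2 called Arnt and Fmo2 higher and Gstp1 lower, where it called 1.85% of all genes higher and 2.26% lower. Over all liver genes tested by edgeR, 8.6% had an unadjusted p under 0.05 on the higher and 9.48% on the lower side.

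In eWAT the same lists had 0 calls in each direction by edgeR. Electron donors had a median log2 fold change of -0.098 over 9 tested genes, haem genes -0.18 over 13, receptors and transcription factors -0.29 over 15, other P450 families -0.24 over 11 and conjugation enzymes -0.39 over 20. Unadjusted p was under 0.05 on the higher side for 1, 2, 0, 0 and 1 of these genes and on the lower side for 0, 1, 1, 2 and 2. Over all eWAT genes tested by edgeR, 6.63% had an unadjusted p under 0.05 on the higher and 9.24% on the lower side. DESeq2 called 3 of the listed genes, all higher: Alad and Urod of haem synthesis and Gstm2, a glutathione transferase. It called 3.18% of all eWAT genes higher and 4.14% lower. Por had 355 ± 179 CPM (WT) against 229 ± 96.9 CPM (IR 4A), a log2 fold change of -0.64 with an SE of 0.39 (edgeR adjusted p = 0.439). The eWAT minus liver difference of the Por change was -0.97 with an SE of 0.43 (edgeR adjusted p = 0.198) on the log2 scale.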

How the data were processed

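Poly(A) RNA of liver and eWAT was sequenced as paired 100 base reads in 20 libraries. The authors deposited estimated counts per gene, whole numbers in both tables; the submitters' processing notes name Salmon 1.8.0, DESeq2 1.32.0 and build GRCm39, and the annotation and filters are not given in the sources used here. Their deposited DESeq2 table holds a mean signal of size-factor normalised counts, log2 fold changes, a Wald score and p-values.

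Repeated rows of a gene ID (83 in liver, 208 in eWAT) were dropped. The minimum row sum was 10 in both tables. Genes were filtered with edgeR's filterByExpr (minimum count 10, total 15), scaled by TMM and tested with edgeR 4.0.16's quasi-likelihood F test in R 4.3.3, each tissue alone, with Benjamini-Hochberg adjustment over all genes and a threshold of 0.05. The tissue difference of the IR 4A change and the tissue comparison came from 1 fit of all 20 libraries. The edgeR fits used the package's default prior count. A prior count of 2 entered only the log2 CPM behind the correlations of libraries with the same number. DESeq2 1.42.0 and limma 3.58.1 (voom) were alternatives. The edgeR test of each tissue was tested on simulated data.

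Named genes were members with a mean of at least 1 CPM that passed the threshold, had 1 of the 10 smallest p-values of a tissue or the 5 smallest of a joint comparison, or were the 2 most abundant of a family, plus Cyp1a2, Cyp2e1, Cyp2f2, Cyp2b10, Cyp2c40, Cyp2d9, Cyp3a11, Cyp4a10, Cyp4a14 and Cyp1b1. Others given with values were chosen after their values were seen. The members and gene lists were chosen with earlier results of these data known. No 2 libraries looked like repeats of each other (lowest chi-square over its degrees of freedom 11.8).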

Additional observations from a re-analysis of the deposited data

Results flagged for a closer look

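Among 82 tests of named members within a group of 5 libraries, 10 single values stood apart from the other 4. The gap was more than 0.71 of the range of the group. For independent, normally distributed values chance flags about 1 in 20 groups. Many values here were at or near 0 and several genes were flagged in the same library, so that rate may not hold. All 10 were in eWAT, and 9 of the 10 were in WT 4 or IR 4A 4. In WT 4, Cyp2j9 was at 13.4 CPM (others 5.66 to 7.08), Cyp2s1 at 13.2 CPM (others 4.87 to 7.08), Cyp2d9 at 6.95 CPM (others 0.121 to 1.32), Cyp4a10 at 3.22 CPM (others 0.0658 to 0.211), Cyp1a2 at 2.97 CPM (others 0 to 0.724) and Cyp4a14 at 1.41 CPM (others 0 to 0.197). In IR 4A 4, Cyp3a11 was at 5.10 CPM (others 0), Cyp4a14 at 1.08 CPM (others 0) and Cyp4a10 at 0.840 CPM (others 0.136 to 0.327). Cyp2b10 was at 0 CPM in IR 4A 3, against 0.327 to 0.420 CPM in the other 4 IR 4A libraries. WT 4 was also the library with the highest adipocyte sum and the lowest epididymis sum in eWAT. In WT 4 and IR 4A 4, hepatocyte genes other than Trf summed to 515 and 315 CPM, against 2.14 to 74.4 CPM in the other 8 eWAT libraries.

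Cyp1b1 differed between tissues in its IR 4A change by the test of that difference. The eWAT minus liver log2 fold change was -1.51 (SE 0.27, edgeR adjusted p = 0.0141). Its level was higher in 5 of 5 IR 4A liver libraries than in any WT liver library, and lower in 4 of 5 IR 4A eWAT libraries than in any WT eWAT library.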

How the results depend on the processing

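The number of P450 genes called depended on the tool. In liver, where edgeR called 0, DESeq2 called 2 (4.11% of all genes), an adjusted p under 0.1 admitted 1 (0.145%), and leaving out single libraries gave 0 to 1 (Cyp2c40 without WT 1, WT 4 or IR 4A 1; 0 to 1.14% of all genes over the 10 fits). In eWAT, where edgeR called 0, DESeq2 called 2 (7.31% of all genes), the fit of all 20 libraries 1 (Cyp2c29; 2.01%), and the adipocyte level as a covariate, added after seeing the data, 1 (Cyp4f39; 7.37%), while leaving out single libraries gave 0 each time. Cyp2c29 did not pass the filter within eWAT. It entered the fit of all 20 libraries through its liver level, and its eWAT change rests on few counts. For the tissue difference of the IR 4A change, 1 under the main settings, DESeq2 called 5 (9.04% of all genes) and leaving out single libraries gave 1 to 3 (3 without eWAT WT 5; 0.474 to 4.94% of all genes over the 20 fits). In the tissue comparison, 43 to 47 members, of 44 to 50 tested, were called under all settings (74.4 to 78.5% of all genes). The labels do not say what libraries with the same number share, and correlations between them cannot settle whether they share an animal. Deviations of libraries with the same number in WT and IR 4A correlated at -0.072 to 0.077 in liver and -0.73 to 0.67 in eWAT. Between liver and eWAT, such deviations correlated at -0.061 to 0.00063 in WT and -0.103 to 0.041 in IR 4A. With the replicate block, 0 members were called in liver (0.0242% of all genes) and 0 in eWAT (0%). For the tissue difference it called 0 members and 0% of all genes, with Cyp1b1 at -1.52 (edgeR adjusted p = 0.0553). In the tissue comparison it called 45 members (75.1% of all genes). Cyp2c40 kept its sign in 17 alternatives (log2 fold change -2.59 to -2.02, adjusted p 1.59e-09 to 0.187), Cyp2c69 in 16 (-2.37 to -1.77) and Cyp2d40 in 17 (-0.91 to -0.66). For 7 liver subfamilies (Cyp1a, Cyp2a, Cyp2c, Cyp2d, Cyp3a, Cyp4a and Cyp4f), RLE scaling or adding letter-ending symbols moved the log2 difference of the summed level by less than the spread between libraries.

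Small differences changed sign. Without liver WT 1 and WT 3, chosen after seeing the data, log2 fold changes were -0.11 for Cyp2e1, -0.23 for Cyp2f2, -0.41 for Cyp4a10, -0.022 for Cyp4a14 and -0.25 for Cyp4v3, which was -0.0082 with no filter. In eWAT Cyp1a1 was -0.19 with voom and -0.33 with the epididymis level as a covariate, where Cyp4b1 was 0.013. Without eWAT WT 4 and IR 4A 4, chosen after seeing the data, Cyp1a1 was -0.019 and Cyp4b1 0.026. With the adipocyte level as a covariate Cyp2e1 was 0.058, Cyp2f2 0.35 and Cyp4b1 0.26. Leaving out single libraries gave, in liver, -0.047 to 0.14 for Cyp2e1, -0.079 to 0.20 for Cyp2f2, -0.16 to 0.62 for Cyp4a10, -0.14 to 0.55 for Cyp4a14 and -0.12 to 0.12 for Cyp4v3, and in eWAT -0.44 to 0.59 for Cyp1a1 and -1.05 to 0.32 for Cyp2f2. The causes were not tested. Depth limited Cyp1b1 and Cyp2c69 in liver and most liver-type members in eWAT, which had few counts.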
